A study of Homo sapiens with 8 samples.

Results

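Untreated NGP cells were compared with untreated CHLA-20 cells, both established human neuroblastoma lines, by RNA sequencing. The comparison used the 4 vehicle libraries of the 8 in the series, chosen by their labels alone: CHLA_20_DMSO, replicates 1 and 2, and NGP_DMSO, replicates 1 and 2. CHLA-20 cells were grown in IMEM with 10% fetal bovine serum and an insulin, transferrin and selenium supplement, and NGP cells in RPMI1640 with 10% fetal bovine serum. Both lines received DMSO, the vehicle of a PRMT5 inhibitor, for 6 days. The other 4 libraries, NGP_JSK591 and CHLA_20_JSK591, received that inhibitor for the same time at a dose the labels describe as its IC50, and the labels spell it both JSK591 and GSK591. Line and medium cannot be told apart, since each line was grown in its own medium. Each group holds 1 line, so a difference belongs to these cultures and not to a class of tumours. The labels give no statement that replicates were separate cultures, so p-values measure only the spread between these libraries, which may be technical.

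Neuroblastoma arises from the sympathetic branch of the neural crest, the embryonic cells that form sympathetic neurons and adrenal chromaffin cells. Its cells can hold an adrenergic identity, in which HAND2, GATA3 and related transcription factors form a mutually reinforcing circuit and catecholamines are made, or a mesenchymal identity marked by factors such as PRRX1. MYCN, a MYC family transcription factor that drives growth and proliferation, is amplified in many high-risk tumours, and tumours without that amplification can express MYC in its place.

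The 4 libraries held 33188542 to 34659833 counts assigned to genes, so that 3 counts in a library corresponded to at most 0.0904 counts per 1000000 assigned counts (CPM). CPM values below were scaled by TMM, a between-library factor that assumes most genes are level. Mitochondrially encoded genes took 19.01 to 20.83% of the counts, and protein-coding genes 90.0 to 91.1%. Reads outside annotated genes were 5.15 and 5.50% in CHLA-20 and 6.84 and 6.86% in NGP. Some genes that every cell uses carried almost no counts: RPS18, which encodes a protein of the small ribosomal subunit, had 1 count over both CHLA-20 libraries and 5 over both NGP libraries, so a count near 0 in both lines was not read as absence of expression. Set against Poisson counting noise over genes, replicates gave a chi-square divided by its degrees of freedom of 3.36 in CHLA-20 and 2.54 in NGP, and pairs of libraries from different lines gave 282 to 289, and the first principal component of the 4 libraries carried 96.0% of the variance. The biological coefficient of variation fitted over all 8 libraries was 2.76%, with 4 residual degrees of freedom.

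Of 19395 genes tested with edgeR's quasi-likelihood test, 14637 (75.5%) differed between the lines at a Benjamini-Hochberg adjusted p under 0.05. Among them 7089 (36.6%) were higher in NGP and 7548 (38.9%) were lower. With a difference of at least 2-fold added, 3055 (15.8%) were higher and 3783 (19.5%) lower, and with at least 8-fold 1024 (5.28%) were higher and 1232 (6.35%) lower. The libraries of the lines did not overlap for 16800 genes (86.6%). The median log2 difference over all tested genes, NGP minus CHLA-20 as throughout, was -0.02 and the median absolute difference 0.67. A call alone therefore says little about a single gene here, and the gene lists below are read against these shares. The shares cover genes of every type. Of the 13953 protein-coding genes tested, 82.8% passed, 5517 higher and 6042 lower, so a list of protein-coding genes can exceed the shares without standing out. Genes called higher or lower below passed this test. Levels written as a pair (from a to b) are means of 2 libraries with CHLA-20 first; among genes at 10 CPM or more, the SD between replicates had a median of 2.54% of the mean in CHLA-20 and 2.77% in NGP, and 95% of genes had less than 8.64% and 8.75%. Libraries of the lines did not overlap for any gene called higher or lower by name and did for AGAP2, MT-ND4 and MTAP, which did not pass. A list member near 0 in one line could enter the test only through its level in the other, so counts over tested members describe those members and not the whole list. Requiring 10 counts in every vehicle library removed the genes near 0 in one line and left 1614 higher and 2142 lower by at least 2-fold.

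The lines carried different MYC family genes. MYCN (chr2:15940564-15947007, GRCh38) stood at 2.57 and 2.10 CPM in CHLA-20 and 2256 and 2389 CPM in NGP, a log2 difference of 9.95 ± 0.07 (SE) with an adjusted p of 2.34e-71 by edgeR. MYC stood at 1393 and 1403 CPM in CHLA-20 and 0.835 and 1.11 CPM in NGP, a log2 difference of -10.49 ± 0.07 (SE) with an adjusted p of 6.25e-73 by edgeR. Each gene was thus high in both libraries of a single line and near 1 to 3 CPM in the other. Per kilobase of exon, the mean level of MYCN in NGP was 893 CPM and that of MYC in CHLA-20 466 CPM. MYCL, the third member of the family, rose from 1.58 to 9.30 CPM (log2 2.55). In the wider network of MYC partners and antagonists, of 12 tested members, 7 were higher and 3 lower in NGP (median log2 0.28). MLXIP, a glucose-responsive partner of MLX, went from 192 to 1379 CPM and MXD1, a MAX-binding repressor, from 18.7 to 60.6 CPM, while MXD3 went from 57.2 to 28.8 CPM.

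Genes usually named as targets of MYC and MYCN were split evenly by calls: of 39 tested members, 18 were higher and 18 lower in NGP. By at least 2-fold 4 were higher and 1 lower. Their median log2 was 0.04 against -0.02 over all genes. Higher in NGP were the kinase CDK4 (108 to 799.9 CPM), the telomerase reverse transcriptase TERT (2.58 to 11.4 CPM), the replicative helicase subunit MCM4 (246 to 647 CPM) and ODC1 (344 to 731 CPM), which makes polyamines. Lower were the nucleolar GTPase GNL3 (180.2 to 85.5 CPM), PHB2 (502 to 325 CPM), FASN (1344 to 926 CPM) and LDHA (399 to 276 CPM). The factors that assemble ribosomes differed little: of 35 tested members, 13 were higher and 12 lower in NGP, and none by 2-fold, with WDR43 highest (log2 0.81) and TSR1 lowest (log2 -0.99). Among cytosolic ribosomal proteins, of 40 tested members, 10 were higher and 21 lower in NGP. RPS4X fell from 2778 to 912 CPM, RPLP2 from 886 to 402 CPM and RPS24 rose from 935 to 1578 CPM. RPL39L, a paralogue of RPL39, had 2558 counts in CHLA-20 and 2 in NGP.

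In the LIN28B and HMGA group of oncofetal genes, of 16 tested members, 9 were higher and 6 lower in NGP. LIN28B, which blocks maturation of let-7 microRNAs, stood at 32.5 and 30.6 CPM in CHLA-20 and 69.8 and 65.2 CPM in NGP, and HMGA1, a chromatin architectural protein, rose from 744 to 1925 CPM. The ARID3 transcription factors ARID3A (19.9 to 73.3 CPM) and ARID3B (12.2 to 72.2 CPM) were higher in NGP. The imprinted genes PLAGL1 (18.5 to 0.0897 CPM) and PEG3 (13.1 to 1.61 CPM) were lower.

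TH and DBH, enzymes that make noradrenaline, were almost missing from NGP. TH, the rate-limiting enzyme of catecholamine synthesis (chr11:2163929-2171877), stood at 1352 and 1409 CPM in CHLA-20 and 0.686 and 0.839 CPM in NGP (log2 -10.82 ± 0.08 (SE), adjusted p 1.1e-72 by edgeR). DBH, which converts dopamine to noradrenaline, stood at 45.95 and 47.6 CPM in CHLA-20 and 0.238 and 0.330 CPM in NGP (log2 -7.35 ± 0.13 (SE)). DDC, the enzyme between them, kept a lower level in NGP with 98.5 and 98.5 CPM in CHLA-20 and 27.4 and 30.4 CPM in NGP (log2 -1.77). Neither line overlapped the other for any of the 3 genes. Of 15 tested members of the catecholamine list 3 were higher and 12 lower in NGP, with a median log2 of -1.32; the vesicular transporters SLC18A1 (log2 -4.15) and SLC18A2 (log2 -2.80) were among the lower members. The noradrenaline transporter SLC6A2 went the other way with 2.49 and 2.37 CPM in CHLA-20 and 35.6 and 35.96 CPM in NGP (log2 3.88 ± 0.09 (SE)), as did the granule protein SCG3 (161 to 242 CPM).

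The transcription factors of the adrenergic circuit did not move as a block: all 20 listed factors passed the test, 10 higher and 10 lower. PHOX2A, a homeobox factor of sympathetic neurons (chr11:72239077-72245664), was high in both lines, at 552 and 574 CPM in CHLA-20 and 705 and 775 CPM in NGP (log2 0.39 ± 0.04 (SE)). GATA3 stood at 444 and 449.8 CPM in CHLA-20 and 589.5 and 620.0 CPM in NGP (log2 0.44) and HAND2 at 766 and 806 CPM in CHLA-20 and 638 and 688 CPM in NGP (log2 -0.25), so these 3 factors were within 2-fold between the lines. HAND2 shared 24.1% of its exonic bases with another gene, and its difference no longer passed once the GC trend of each library was removed (log2 -0.01). TFAP2B, a neural crest and sympathetic factor, fell from 225 to 6.55 CPM, and ISL1 and GATA2 had log2 differences of -0.89 and -1.08. HAND1 (46.9 to 302 CPM), TBX20 (4.65 to 37.8 CPM), INSM1 (17.5 to 88.6 CPM) and DACH1 (2.84 to 26.9 CPM) were higher in NGP.

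**Figure D1:**
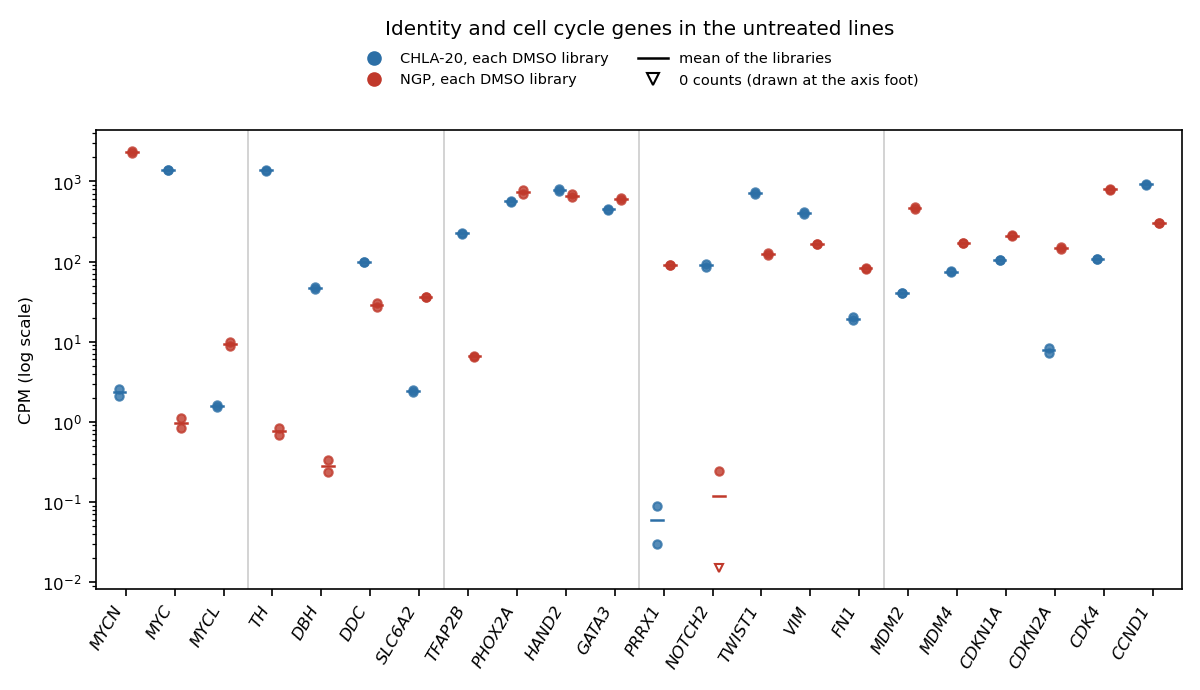
Level of 22 genes in each DMSO library, in CPM on a log axis, with points for libraries and bars for the mean of the 2 libraries of a line; an open triangle marks 0 counts. From left to right the blocks hold MYC family genes, catecholamine genes, adrenergic factors, mesenchymal genes and MDM2 and cell cycle genes. MYCN and MYC trade places between the lines, TH and DBH lie below 1 CPM in NGP, and PHOX2A, HAND2 and GATA3 lie close together.

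Neuronal cytoskeleton and synapse genes were mostly lower in NGP: of 29 tested members, 8 were higher and 20 lower in NGP (median log2 -0.49). Among the neurofilament subunits NEFL stood at 290.0 and 299 CPM in CHLA-20 and 5.87 and 5.96 CPM in NGP, while NEFM went from 368 to 16.9 CPM and NEFH from 153 to 51.99 CPM. STMN2, a growth cone protein that binds tubulin, went from 1694 to 269 CPM and the synaptotagmin SYT4 from 321 to 52.99 CPM. NLGN1, a postsynaptic adhesion molecule, rose from 4.56 to 44.4 CPM, and DPYSL3, CPLX2 and RTN1 had log2 differences of 1.48, 1.38 and 1.32. As a check of the labelled cell type, 15 of 16 sympathetic neuroblast markers were tested, of which 3 were higher and 12 lower in NGP. Their summed level was 7014 and 7094 CPM in CHLA-20 and 3214 and 3380.1 CPM in NGP, and CHGA had 0 counts in all 4 libraries. Markers of blood summed to at most 1.498 CPM in any library, those of endothelium to at most 1.92 CPM and those of epithelium to at most 10.53 CPM. Schwann cell markers summed to 95.9 to 115 CPM, nearly all of it NGFR, which stood at 104 and 110.0 CPM in CHLA-20 and 93.1 and 102 CPM in NGP. Within a bulk sample, fewer cells of a kind and less RNA per cell cannot be told apart.

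Mesenchymal factors were divided between the lines as well: of 22 tested members, 10 were higher and 9 lower in NGP (median log2 0.27). PRRX1, a homeobox factor of mesenchyme, had 4 counts over both CHLA-20 libraries and stood at 90.4 and 90.8 CPM in NGP. SOX9 (0.518 to 27.6 CPM) and TBX18 (3.23 to 14.7 CPM) were also higher in NGP. NOTCH2 showed the reverse, with 92.9 and 86.5 CPM in CHLA-20 and 0 and 0.240 CPM in NGP. TWIST1, a factor of epithelial to mesenchymal transition, went from 716 to 124 CPM and the AP-1 member FOSL2 from 29.02 to 10.6 CPM. Among the transition factors and cadherins, of 26 tested members, 16 were higher and 8 lower in NGP (median log2 0.79). The intermediate filament VIM stood at 411 and 398 CPM in CHLA-20 and 165 and 164 CPM in NGP (log2 -1.30) and fibronectin FN1 at 20.1 and 18.7 CPM in CHLA-20 and 83.9 and 81.04 CPM in NGP (log2 2.09), so these classical mesenchymal markers pointed in opposite directions. MMP14, a membrane protease that degrades matrix, fell from 35.9 to 1.55 CPM, while the cadherins CDH18 (1.85 to 21.7 CPM) and CDH7 (1.91 to 9.91 CPM) rose.

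Matrix genes gave each line its own set. Of 29 tested collagen genes 11 were higher and 13 lower in NGP. COL1A1 stood at 69.9 and 72.1 CPM in CHLA-20 and 539 and 556 CPM in NGP, whereas COL1A2, which encodes the other chain of type I collagen, stood at 8.67 and 6.46 CPM in CHLA-20 and 0.209 and 0.120 CPM in NGP. COL11A1 (0.340 to 24.3 CPM) and COL4A1 (6.54 to 58.7 CPM) followed COL1A1, and COL22A1 (37.9 to 0.150 CPM) and COL8A2 (5.95 to 0.209 CPM) followed COL1A2. In the list of matrix glycoproteins, proteoglycans and integrins, of 47 tested members, 19 were higher and 24 lower in NGP (median log2 -0.63). The small proteoglycans DCN (134 to 0.120 CPM) and LUM (158 to 3.78 CPM) were expressed mainly in CHLA-20. SPOCK1 (5.77 to 260.2 CPM), LOX, which crosslinks collagen (1.84 to 46.9 CPM), and the integrin chains ITGB5 (0.681 to 28.6 CPM) and ITGA8 (0.0888 to 5.42 CPM) were expressed mainly in NGP. Fibroblast and stroma markers, which overlap these lists, summed to 584 and 590.1 CPM in CHLA-20 and 755 and 771 CPM in NGP; 3 of 10 tested were higher and 6 lower in NGP (median log2 -1.11, opposite in sign to the summed level), FAP and POSTN had at most 6 counts over a line, and the part of other cells in these values was not tested. YAP and TAZ genes were lower in 10 of 17 cases and higher in 6. NT5E (6.22 to 0.105 CPM) and LOXL2 (4.53 to 0.941 CPM) were lower and TGFB2 (0.563 to 5.64 CPM) and CYR61 (1.90 to 17.04 CPM) higher.

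MDM2 and CDKN2A were much higher in NGP. MDM2, a ubiquitin ligase that is an oncogene in several tumours, stood at 40.5 and 40.7 CPM in CHLA-20 and 482 and 454 CPM in NGP (log2 3.53 ± 0.04 (SE)), and MDM4, its partner, went from 74.6 to 172 CPM. CDKN2A, which encodes the CDK inhibitor p16 and the MDM2 inhibitor ARF, stood at 7.16 and 8.41 CPM in CHLA-20 and 144 and 151 CPM in NGP (log2 4.24 ± 0.06 (SE)), and TP73 rose from 0.311 to 37.4 CPM. Listed genes of growth arrest, DNA repair and apoptosis that cell stress induces were balanced: of 35 tested members, 15 were higher and 15 lower in NGP, and 3 were higher and 7 lower by at least 2-fold (median log2 -0.004). CDKN1A, the CDK inhibitor p21, stood at 106 and 104 CPM in CHLA-20 and 207 and 216 CPM in NGP, and CCNG1 (133 to 320.1 CPM), SPATA18 (7.62 to 16.9 CPM) and SESN2 (18.7 to 36.5 CPM) were higher too. The death receptor FAS (1.14 to 0.0599 CPM), THBS1 (4.13 to 0.926 CPM) and the cytokine GDF15 (107 to 27.8 CPM) were lower.

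Among G1 control genes the kinase CDK4 and its cyclin CCND1 moved in opposite directions. CDK4 stood at 108 and 108 CPM in CHLA-20 and 789 and 811 CPM in NGP (log2 2.89 ± 0.04 (SE)) and CCND1, a D cyclin that activates it, at 913 and 926 CPM in CHLA-20 and 301 and 306 CPM in NGP (log2 -1.60 ± 0.04 (SE)). CDK4 shared 43.2% of its exonic bases with neighbouring genes on either strand, so part of its reads may not have been assigned to it. CDK inhibitors moved both ways: CDKN1B, which encodes p27, went from 217 to 42.9 CPM and CDKN2D from 20.3 to 6.23 CPM, while CDKN2C (3.45 to 22.7 CPM) and CDKN2B (0.0740 to 1.85 CPM) rose. In the whole list, of 25 tested members, 12 were higher and 8 lower in NGP. S phase genes were balanced, with 17 higher and 15 lower of 40, whereas mitosis genes were mostly lower: of 37 tested members, 5 were higher and 27 lower in NGP (median log2 -0.33). MKI67, the proliferation marker Ki-67, went from 610.2 to 167 CPM, FOXM1 from 373 to 192 CPM, CCNB1 from 117 to 61.1 CPM and CENPF from 556 to 300.4 CPM. TPX2, a spindle assembly factor, went from 275 to 527 CPM and CCNA2 from 98.8 to 143 CPM. MKI67 was the only 1 of the 37 tested mitosis genes lower by at least 2-fold.

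HOX genes, which encode position along the body axis, differed by cluster and by place within a cluster. Over both CHLA-20 libraries HOXA7, HOXA9, HOXA11 and HOXA13 had 0 counts and HOXA10 had 1, whereas NGP carried 2.15 ± 0.346 CPM (SD, n = 2) of HOXA7 and 5.69 ± 0.591 CPM (SD, n = 2) of HOXA13. Set against a floor of 3 counts over both libraries, HOXA13 was at least 128-fold higher in NGP, HOXA11 at least 66.3-fold, HOXA7 at least 48.5-fold and HOXA9 at least 13.8-fold. HOXB2 was the opposite case, with 245 counts in CHLA-20 and 0 in NGP, at least 80.9-fold lower in NGP. HOXC6 (23.6 to 8.80 CPM) and HOXC9 (22.4 to 3.11 CPM) were lower in NGP, while HOXC4 stood at 99.2 and 104 CPM in CHLA-20 and 84.8 and 91.2 CPM in NGP. Along the HOXD cluster HOXD8 (91.8 to 11.7 CPM) and HOXD9 (41.6 to 20.6 CPM) were lower and HOXD10 (6.56 to 12.3 CPM) and HOXD13 (4.20 to 20.02 CPM) higher. Of 22 HOX genes tested 9 were higher and 11 lower in NGP, and 4 of the 39 listed had 0 counts in all 4 libraries.

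**Figure D2:**
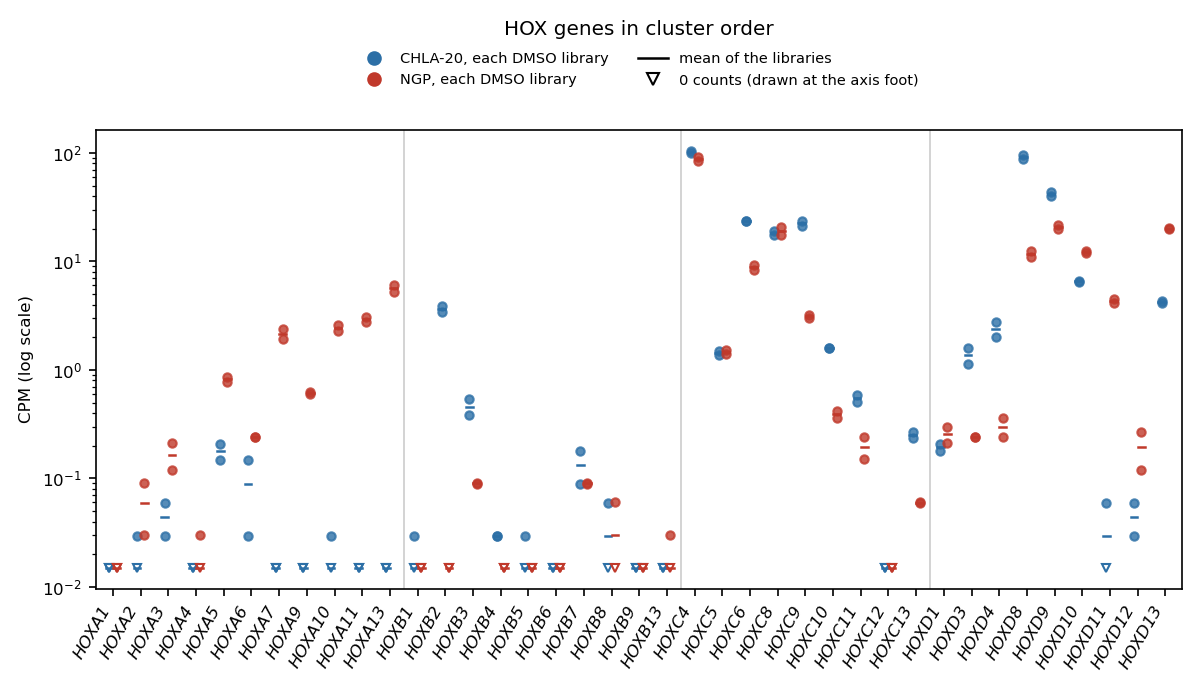
Level of the listed HOX genes in each DMSO library, in CPM on a log axis, ordered by cluster (A to D) and by number within the cluster; points are libraries, bars are means of 2 libraries and an open triangle marks 0 counts. HOXA7 to HOXA13 appear in NGP with at most 1 count in CHLA-20, and in the HOXD cluster HOXD3 to HOXD9 lie higher in CHLA-20 and HOXD10 to HOXD13 higher in NGP.

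Other transcription factors of the neural tube and neural crest were the list with the highest median, 2.84: of 47 tested members, 30 were higher and 13 lower in NGP, against 36.6% higher and 38.9% lower over all genes. Each of the 30 was higher by at least 2-fold. ZIC1, a dorsal neural tube factor, stood at 0.148 and 0.0296 CPM in CHLA-20 and 51.3 and 51.3 CPM in NGP, and NKX6-1, a ventral one, at 0.118 and 0.119 CPM in CHLA-20 and 69.7 and 73.7 CPM in NGP. PAX7 rose from 0.0592 to 19.3 CPM, while NEUROG2 was at least 146-fold higher against the floor of 3 counts. PAX8 had 700 counts in CHLA-20 and 2 in NGP, and IRX3 (7.98 to 0.0749 CPM), IRX5 (10.9 to 0.613 CPM) and MAB21L2 (212 to 12.7 CPM) were also mainly in CHLA-20. Most of the higher members were near 0 in CHLA-20: with at least 10 counts required in every vehicle library the list's median was -0.23.

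RET, a receptor kinase of sympathetic neurons, was lower in NGP, and PDGFRA, KIT and ERBB4 were higher. ALK, which is mutated in a share of these tumours, stood at 63.8 and 61.9 CPM in CHLA-20 and 36.6 and 36.5 CPM in NGP (log2 -0.78 ± 0.05 (SE)). RET, the receptor of the GDNF family, stood at 156 and 161 CPM in CHLA-20 and 7.15 and 6.98 CPM in NGP (log2 -4.49 ± 0.06 (SE)). GFRA2, a co-receptor that binds neurturin, rose from 12.6 to 144 CPM, while neurturin itself, NRTN, fell from 26.9 to 0.568 CPM. BDNF rose from 1.51 to 14.6 CPM and PTN, which encodes pleiotrophin, fell from 36.6 to 0.613 CPM. The list held 10 higher and 8 lower of 20 tested. Among other receptor kinases, of 26 tested members, 16 were higher and 9 lower in NGP (median log2 0.54). PDGFRA stood at 10.2 and 8.15 CPM in CHLA-20 and 111 and 107 CPM in NGP and FGFR3 (1.69 to 13.8 CPM), ERBB4 (3.61 to 26.3 CPM) and KIT (4.68 to 28.7 CPM) were higher too, whereas EGFR (90.98 to 19.2 CPM), PDGFRB (115 to 35.2 CPM) and INSRR (20.3 to 0.657 CPM) were lower. Of 13 genes of the insulin-like growth factor axis 7 were higher and 6 lower; the binding proteins IGFBP4 (49.2 to 345 CPM) and IGFBP6 (4.19 to 0.0897 CPM) differed most, and the receptor IGF1R went from 34.5 to 64.8 CPM.

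ETV factors and the feedback inhibitors that ERK signalling induces were lower in NGP: of 16 tested members, 2 were higher and 13 lower in NGP (median log2 -1.57, the lowest of the 45 lists plotted). DUSP6, a phosphatase that inactivates ERK, stood at 128 and 127 CPM in CHLA-20 and 2.18 and 2.58 CPM in NGP (log2 -5.74 ± 0.08 (SE)). ETV1 stood at 376 and 370.2 CPM in CHLA-20 and 26.02 and 27.7 CPM in NGP (log2 -3.80 ± 0.05 (SE)), and ETV5 (15.53 to 0.284 CPM), ETV4 (10.8 to 1.29 CPM) and EPHA2 (31.2 to 3.33 CPM) were lower as well. Immediate-early genes, many of which the same pathway can induce, went the other way: of 24 tested members, 18 were higher and 5 lower in NGP (median log2 1.48, or 0.77 over members with at least 10 counts in every vehicle library). KLF4 stood at 0.0592 and 0.0889 CPM in CHLA-20 and 11.4 and 12.1 CPM in NGP, NR4A2 went from 0.0740 to 10.04 CPM, EGR2 from 0.0592 to 7.08 CPM and NPAS4 from 0.133 to 12.5 CPM. JUND (527 to 232 CPM), IER5 (67.3 to 36.1 CPM) and FOSL2 were lower. The cultures' handling at harvest is not given in the labels.

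The PI3K and AKT list was balanced: of 31 tested members, 12 were higher and 12 lower in NGP. PIK3R1, the regulatory subunit p85, fell from 121 to 37.6 CPM, and the AKT-related kinase SGK1 from 103 to 1.79 CPM. INPP4B, a lipid phosphatase, rose from 0.429 to 4.63 CPM, and MTOR from 92.8 to 148 CPM. AKT1 stood at 111 and 117 CPM in CHLA-20 and 71.7 and 72.3 CPM in NGP (log2 -0.67). AKT2 stood at 97.6 and 101 CPM in CHLA-20 and 103 and 113 CPM in NGP (log2 0.12, adjusted p 0.0108 by edgeR), and this call was lost without replicate 1 of CHLA_20_DMSO or replicate 2 of NGP_DMSO.

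Genes of PRMT5, the enzyme targeted in the treated libraries, differed little. PRMT5, which dimethylates arginine symmetrically, stood at 45.6 and 45.8 CPM in CHLA-20 and 61.9 and 62.5 CPM in NGP (log2 0.44 ± 0.05 (SE)), and its obligate partner WDR77 at 17.2 and 16.6 CPM in CHLA-20 and 12.3 and 13.2 CPM in NGP (log2 -0.41 ± 0.08 (SE)). The substrate adaptors CLNS1A (111 to 188 CPM) and RIOK1 (44.98 to 64.7 CPM) were higher in NGP. MTAP, whose loss makes cells depend on PRMT5, stood at 54.9 and 53.6 CPM in CHLA-20 and 55.98 and 51.8 CPM in NGP and did not pass (log2 -0.01, adjusted p 0.864 by edgeR). Of 12 tested arginine methyltransferases and partners 6 were higher and 4 lower, none by 2-fold. PRMT5 and WDR77 shared 27.1% and 36.5% of their exonic bases with other genes. Among Polycomb, DNA methylation and related chromatin genes, of 28 tested members, 9 were higher and 12 lower in NGP. The chromatin remodeller CHD5 went from 46.6 to 1.82 CPM and the SWI/SNF ATPase SMARCA2 from 29.5 to 2.26 CPM. SUZ12, a core subunit of Polycomb repressive complex, went from 187 to 85.9 CPM, and JARID2, which associates with that complex, from 41.1 to 86.5 CPM.

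Developmental signalling lists were mixed. For Notch, of 22 tested members, 8 were higher and 12 lower in NGP. The ligand JAG1 stood at 2.37 and 2.34 CPM in CHLA-20 and 32.4 and 32.8 CPM in NGP, while the receptors NOTCH2 and NOTCH3 had log2 differences of -9.51 and -3.49 and the target HEY2 went from 2.37 to 0.0450 CPM. Of 39 Wnt genes 15 were higher and 20 lower. The secreted antagonists split, with DKK1 (10.4 to 126 CPM) and SFRP5 (0.355 to 8.62 CPM) higher and DKK2 (41.01 to 0.807 CPM) lower, and the ligand WNT6 fell from 14.4 to 0.359 CPM. In the BMP and TGF-beta list, of 36 tested members, 20 were higher and 9 lower in NGP (median log2 0.41, or 1.27 over members with at least 10 counts in every vehicle library). GDF6, a BMP ligand, had 1 count in CHLA-20 and 28.9 ± 0.968 CPM (SD, n = 2) in NGP, and INHBE (1.92 to 37.4 CPM) and the receptor TGFBR2 (0.563 to 5.25 CPM) were higher. Axon guidance genes were even at 19 higher and 19 lower of 43. SEMA6A (11.7 to 113 CPM) and EPHA4 (0.814 to 7.31 CPM) were higher and SEMA3C (211 to 4.47 CPM), SLIT1 (106 to 6.55 CPM) and EFNA1 (11.6 to 0.0747 CPM) lower. Clustered protocadherins, adhesion proteins of which neurons express individual combinations, were higher in 28 and lower in 14 of 52 cases. PCDHGA1 (0.222 to 10.4 CPM) and PCDHB2 (1.303 to 25.5 CPM) were higher, PCDHGB7 (47.6 to 1.75 CPM) and PCDHB5 (12.3 to 0.403 CPM) lower. Members of the alpha and gamma clusters share exons, so their counts are uncertain.

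Receptors for neurotransmitters included a set of GABA-A subunits that were far higher in NGP. GABRB2 stood at 0.0592 and 0.237 CPM in CHLA-20 and 30.3 and 29.1 CPM in NGP and GABRA2 at 0.118 and 0.0593 CPM in CHLA-20 and 16.4 and 15.9 CPM in NGP. GAD1, which makes GABA from glutamate, went from 0.0740 to 29.4 CPM. The delta subunit GABRD went the other way, from 9.24 CPM in CHLA-20 to 2 counts over both NGP libraries, with both CHLA-20 libraries above both NGP libraries. The glutamate receptor subunit GRIA1 (0.0741 to 7.73 CPM) was higher and GRIN1 (60.6 to 4.08 CPM) lower. The muscarinic receptor CHRM1 fell from 30.1 to 0.329 CPM, and the sympathetic neuropeptides NPY (376 to 14.1 CPM) and VIP (163 to 0.164 CPM) were far lower in NGP. Over the list, of 50 tested members, 25 were higher and 20 lower in NGP (median log2 0.44). Voltage-gated channels were even at 19 higher and 18 lower of 42. The T-type calcium channel CACNA1H stood at 0.237 and 0.415 CPM in CHLA-20 and 45.04 and 48.2 CPM in NGP, while CACNA2D2 (111 to 22.1 CPM) and CACNA1A (8.28 to 1.29 CPM) were lower.

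GD2 is the ganglioside to which antibody treatment of neuroblastoma is directed. ST8SIA1, the GD3 synthase at the start of this branch, stood at 22.6 and 24.8 CPM in CHLA-20 and 1.52 and 2.28 CPM in NGP (log2 -3.64 ± 0.12 (SE)), and B4GALNT1, which completes GD2, at 69.7 and 68.2 CPM in CHLA-20 and 39.9 and 38.96 CPM in NGP (log2 -0.81 ± 0.05 (SE)). Of 9 tested genes of this route 3 were higher and 4 lower in NGP. In antigen presentation, the class I light chain B2M stood at 50.5 and 46.1 CPM in CHLA-20 and 35.03 and 34.8 CPM in NGP (log2 -0.47), and NLRC5, the activator of class I genes, went from 5.79 to 0.194 CPM. Counts of HLA genes depend on how close a line's alleles are to the reference: HLA-B had 12 counts over the CHLA-20 libraries and 0 in NGP, HLA-C and TAP1 had 0 in all 4 libraries, and the part of mapping in these values was not tested. Of 14 tested members 5 were higher and 6 lower, and 8 of 24 listed had 0 counts throughout. Interferon-stimulated genes numbered 7 higher and 10 lower of 25 tested. OAS3, an enzyme activated by double-stranded RNA, had 1721 counts in CHLA-20 and 2 in NGP.

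Glycolysis and pyruvate genes were lower in NGP: of 31 tested members, 4 were higher and 23 lower in NGP (median log2 -0.35). The lactate exporter SLC16A3 went from 9.93 to 0.403 CPM, the glucose transporter SLC2A3 from 11.6 to 2.86 CPM, ALDOC from 96.4 to 27.7 CPM and ENO2 from 266 to 104 CPM. ENO1, the other enolase listed, rose from 944 to 1609 CPM. Nuclear-encoded subunits of the respiratory chain showed a smaller shift, of 37 tested members, 8 were higher and 22 lower in NGP (median log2 -0.20), with UQCRC1 (189.8 to 77.2 CPM) and COX6C (186 to 82.8 CPM) among the lower genes. Of the 15 mitochondrially encoded genes 6 were higher and 7 lower. MT-RNR2 stood at 48513 and 43472 CPM in CHLA-20 and 53217 and 53095 CPM in NGP, MT-CO1 at 46225 and 43343 CPM in CHLA-20 and 33820.0 and 34954 CPM in NGP and MT-CO2 at 24982 and 22963 CPM in CHLA-20 and 16897 and 16745 CPM in NGP. MT-ND4 (log2 0.04, adjusted p 0.34 by edgeR) and MT-CO3 (log2 -0.07, adjusted p 0.0684 by edgeR) did not pass, and MT-ND5 fell from 11238 to 5372 CPM.

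Cholesterol genes gave 15 higher and 10 lower of 28 (median log2 0.28). FDFT1, squalene synthase, rose from 190.2 to 841 CPM, while SREBF1, the transcription factor SREBP-1, fell from 231 to 71.3 CPM. Serine, one-carbon and methionine enzymes were even at 13 and 12 of 31; MAT2A, which makes the methyl donor used by PRMT5, went from 289.7 to 132 CPM and AHCY from 294 to 482 CPM. For ATF4 and the unfolded protein response, of 29 tested members, 16 were higher and 8 lower in NGP (median log2 0.19), with the chaperone HSPA5 at 152 and 148 CPM in CHLA-20 and 404 and 382 CPM in NGP and HERPUD1 going from 53.9 to 175 CPM. Transferrin and selenium were added to the medium of CHLA-20 alone, and in the iron, transferrin and selenoprotein list 8 were higher and 15 lower of 29. The selenoprotein GPX1 went from 167 to 55.6 CPM and TFR2, a transferrin receptor, from 19.96 to 0.179 CPM, whereas SEPHS2, which makes selenophosphate, went from 40.5 to 90.7 CPM. The part of the media in these values was not tested. Metallothioneins and zinc transporters gave 6 higher and 1 lower of 8, with SLC39A14 going from 96.9 to 147 CPM. In the BCL2 family, of 26 tested members, 10 were higher and 12 lower in NGP: the survival proteins moved apart, with BCL2 at 65.04 and 65.1 CPM in CHLA-20 and 21.1 and 20.9 CPM in NGP and MCL1 at 171 and 174 CPM in CHLA-20 and 376 and 369 CPM in NGP. CASP8 stood at 0.385 and 0.356 CPM in CHLA-20 and 0.805 and 0.539 CPM in NGP and did not pass (adjusted p 0.0614 by edgeR).

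**Figure D3:**
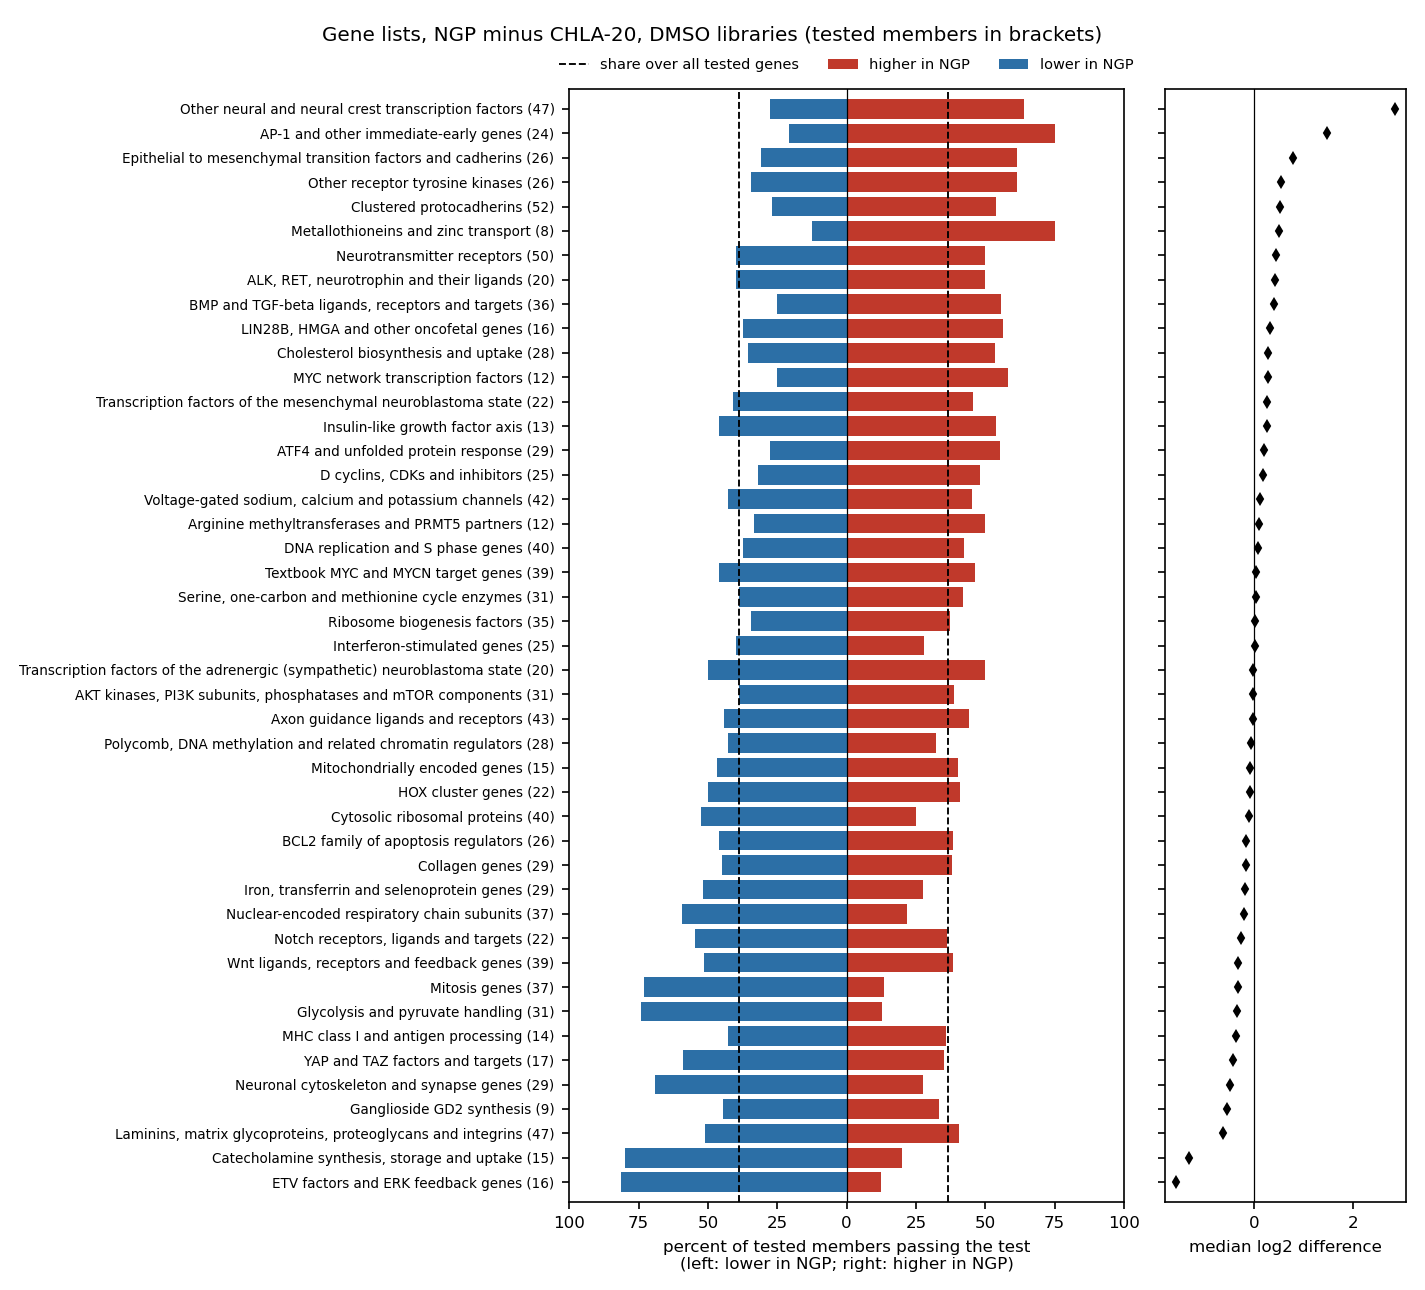
Percent of the tested members of each gene list drawn that were lower (left) or higher (right) in NGP at an adjusted p under 0.05, with dashed lines at the shares over all genes tested, 38.9% and 36.6%; the right panel gives each list's median log2 difference, NGP minus CHLA-20. The dashed lines cover genes of every type, of which 75.5% passed, against 82.8% of protein-coding genes. ETV and ERK feedback genes and catecholamine genes lie at the bottom, and neural crest factors and immediate-early genes at the top.

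Ranked by size, the 15 protein-coding genes with the largest difference in favour of NGP, among those with at least 4 counts in CHLA-20, were ARHGAP36, PRRX1, DSC2, MAGEC1, MYCN, GTSF1, FGF13, NKX6-1, ZIC1, STXBP6, PKP2, PLA2G3, GAD1, CNTNAP4 and SLC17A8. Their log2 differences ran from 8.49 to 11.56. ARHGAP36, which inhibits protein kinase A and activates Hedgehog signalling, stood at 0.296 and 0.237 CPM in CHLA-20 and 813 and 823 CPM in NGP. DSC2 (0.0592 to 87.9 CPM) and PKP2 (0.104 to 49.4 CPM) belong to desmosomes, and SLC17A8 (0.281 to 103 CPM) loads glutamate into vesicles. The 15 in favour of CHLA-20 were TH, MYC, DCN, RAB4A, VIP, NPTX2, IL20RA, CDCA7L, NOTCH2, ME1, PRKAR2A, TRAF5, MARC1, SNX9 and EPB41L2, with log2 differences from -9.15 to -10.82. EPB41L2, a membrane skeleton protein, stood at 131 and 128 CPM in CHLA-20 and 0.149 and 0.300 CPM in NGP. PRKAR2A, a regulatory subunit of protein kinase A, stood at 59.6 and 62.05 CPM in CHLA-20 and 0.0596 and 0.120 CPM in NGP, and the neuronal pentraxin NPTX2 at 63.1 and 59.9 CPM in CHLA-20 and 0.0596 and 0.0899 CPM in NGP. RAB4A and CDCA7L shared 19.6% and 20.4% of their exonic bases with other genes.

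A further 13 genes had at least 10 CPM in each NGP library and at most 3 counts over both CHLA-20 libraries, and 45 genes had the reverse; these are called restricted to a line here. In NGP, SEPT14 stood at 125 and 119 CPM against 0 counts, at least 2755-fold higher against the floor of 3 counts. MAGEC2, a cancer-testis antigen, stood at 82.7 and 82.9 CPM against 3 counts, and NRN1, the neurite outgrowth protein neuritin, at 69.5 and 70.2 CPM against 1 count. SYT6, GALNT17, the heart and limb factor TBX5, the desmosomal cadherin DSG2, GDF6 and SMTNL2 were also among the 10 most abundant. In CHLA-20, UBB, which encodes polyubiquitin, stood at 322 and 298 CPM against 2 counts in NGP, a ratio of 10375-fold (95% counting interval 2872 to 85672). UBB shared 28.4% of its exonic bases with another gene. YES1, a kinase of the SRC family, stood at 49.5 and 52.6 CPM and S100A6, a calcium-binding protein, at 47.99 and 53.6 CPM, both against 0 counts, at least 1139-fold and at least 1133-fold higher in CHLA-20. The cytoglobin gene CYGB, CCDC144NL-AS1, CYYR1, LINC02381, PAX8-AS1 and B3GALNT1 were also among the 10 most abundant.

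CG dinucleotides near a gene's start are where DNA methylation can silence it, and their density differs widely between promoters. The 250 bases before the RefSeq start nearest to the annotated 5′ end are shown for 2 genes restricted to each line (RefSeq, GRCh38.p14, 5′ to 3′ along the gene, CG dinucleotides in capitals). They were picked by hand and not by a rule: SEPT14 and YES1, with 0 counts in the other line, are not shown, and MAGEC2, with 3 counts, is. Measured from the 5′ end of the GENCODE gene, the RefSeq start lay 492 bases inside UBB, 253 inside S100A6 and 3580 inside NRN1, so these 3 windows lie within the annotated gene, and that of MAGEC2 was at the same base. UBB (chr17:16381040-16381289, plus strand) has 12 CG dinucleotides, S100A6 (chr1:153535992-153536241, minus strand) 24, NRN1 (chr6:6004026-6004275, minus strand) 19 and MAGEC2 (chrX:142205291-142205540, minus strand) 6. The range from 6 to 24 follows from this choice and describes these genes only.
UBB: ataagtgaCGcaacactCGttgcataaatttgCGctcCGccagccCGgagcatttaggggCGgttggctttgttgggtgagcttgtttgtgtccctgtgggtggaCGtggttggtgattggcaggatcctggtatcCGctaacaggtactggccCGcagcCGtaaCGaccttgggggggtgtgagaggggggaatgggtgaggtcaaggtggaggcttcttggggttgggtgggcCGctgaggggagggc
S100A6: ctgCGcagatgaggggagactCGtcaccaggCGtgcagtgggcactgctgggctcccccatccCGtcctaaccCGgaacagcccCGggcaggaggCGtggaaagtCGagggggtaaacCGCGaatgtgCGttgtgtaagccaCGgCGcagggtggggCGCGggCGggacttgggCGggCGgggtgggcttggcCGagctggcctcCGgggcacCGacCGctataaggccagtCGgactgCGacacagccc
NRN1: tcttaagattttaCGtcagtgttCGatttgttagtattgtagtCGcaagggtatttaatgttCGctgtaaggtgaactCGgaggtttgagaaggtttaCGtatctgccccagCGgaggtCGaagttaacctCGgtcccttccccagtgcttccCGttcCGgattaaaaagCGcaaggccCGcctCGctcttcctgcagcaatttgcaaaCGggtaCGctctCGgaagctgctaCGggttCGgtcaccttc
MAGEC2: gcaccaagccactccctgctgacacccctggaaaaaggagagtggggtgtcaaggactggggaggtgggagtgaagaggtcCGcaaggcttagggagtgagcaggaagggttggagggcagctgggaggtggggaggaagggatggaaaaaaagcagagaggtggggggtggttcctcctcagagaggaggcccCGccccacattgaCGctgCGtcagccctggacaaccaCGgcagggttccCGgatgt

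Windows were found for 9 of the 12 protein-coding genes restricted to NGP and for 30 of the 36 restricted to CHLA-20. They were also found for 11285 of 13931 tested protein-coding genes outside chromosome Y and the mitochondrial genome. A window over 50% GC with an observed to expected CG ratio over 0.6 was held by 7 of 9, by 21 of 30 and by 74.6% of all. The median number of CG dinucleotides was 19 and 17 in these sets against 21 in all. Some of these windows lay far inside the annotated gene, up to 212358 bases among genes restricted to NGP and 69506 among those restricted to CHLA-20. The letters CACGTG, the core of the E-box that MYC and MAX dimers bind, read the same on both strands and lay in 32 of 459 windows (6.97%) of genes at least 8-fold higher in NGP, in 44 of 681 (6.46%) of genes at least 8-fold lower and in 8.52% of all windows. The letters TATAAA, searched on the gene's strand, lay in 12.9%, 3.96% and 3.98% of the same sets. Of the 59 windows with TATAAA among the higher genes, 11 belonged to histone genes, which gave 13 of the 459 windows. DNA methylation and factor binding were not measured in these libraries.

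Differences were also grouped along chromosomes. Runs of 25 consecutive tested genes were ranked by their median log2 difference; over 18804 runs, 5% lay below -0.97 and 5% above 0.61. The highest run, chr2:11444375-16974497, had a median of 6.56 and held MYCN, its antisense transcript MYCNOS (0.222 to 120.5 CPM), FAM49A (1.41 to 314 CPM), NBAS at 56.1 and 56.2 CPM in CHLA-20 and 166 and 159.8 CPM in NGP and DDX1 at 97.2 and 96.7 CPM in CHLA-20 and 163 and 164 CPM in NGP; within it 20 genes were higher and 4 lower, and TRIB2 (log2 -0.63) was among the latter. The other 4 of the highest 5 lay on chromosome 12. At chr12:57726271-60096071 (median 2.96) the step was sharp: AGAP2 had a log2 difference of -0.04 and did not pass, and the adjacent genes TSPAN31 and CDK4 3.14 and 2.89, with CTDSP2 going from 182 to 2171 CPM. At chr12:66302545-69601570 (median 3.30) lay MDM2, the carboxypeptidase M gene (log2 7.40) and FRS2 (log2 3.37), an adaptor of FGF receptors. The adjoining runs chr12:121804180-122716892 and chr12:122726076-123533718 (medians 3.43 and 3.04) came next; the first held MLXIP and WDR66 (0.266 to 5.76 CPM), and all 25 of its genes were higher. DNA copy number was not measured in these libraries.

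The lowest run lay on chromosome 19 at chr19:52190039-53133077, in a cluster of zinc finger genes, with a median of -4.28 and 21 of 25 genes lower in NGP. ZNF880 (5.79 to 0 CPM), ZNF816 (2.74 to 0 CPM), ZNF83 (28.1 to 0.0748 CPM) and ZNF320 (1.13 to 0 CPM) led it. A second cluster at chr19:56087366-57280334 had a median of -1.94, led by ZNF264 (15.9 to 0.0150 CPM) and ZNF542P (8.96 to 0.0450 CPM), and another at chr19:21965708-27793940 a median of -1.84. Over the chromosome, 139 of 242 tested zinc finger genes were lower and 63 higher, against 96 lower and 127 higher of 276 elsewhere. Of all 1260 tested genes of chromosome 19, 668 (53.02%) were lower and 295 (23.4%) higher, so the family's count was near that of its chromosome. The chromosome's count covers genes of every type and includes the family, whose counted genes were all protein-coding. By at least 2-fold, 77 of the 242 were lower and 14 higher. Of the 276 elsewhere, 41 were lower and 35 higher by that size. Over all genes tested these shares were 19.5% and 15.8%. This family was counted after the runs were seen, and the reads of its similar members can be uncertain. The remaining low runs were chr1:156742107-159873053 (median -2.06), with CADM3 (36.2 to 0.0150 CPM) and KIRREL1 (39.9 to 0.0450 CPM), and chr11:121101173-124834487 (median -1.94), with VWA5A (1.36 to 0 CPM) and NRGN (27.7 to 0.224 CPM). Among whole chromosomes, 17 had the lowest median, -0.56, with 731 of 1190 genes lower and 201 higher. Chromosomes 7 (-0.38) and 19 (-0.35) were also low, and 6 (0.31) and 2 (0.21) high, while the others lay between -0.19 and 0.14. After the GC trend of each library was removed the medians of 17, 7 and 19 were -0.47, -0.36 and -0.16.

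**Figure D4:**
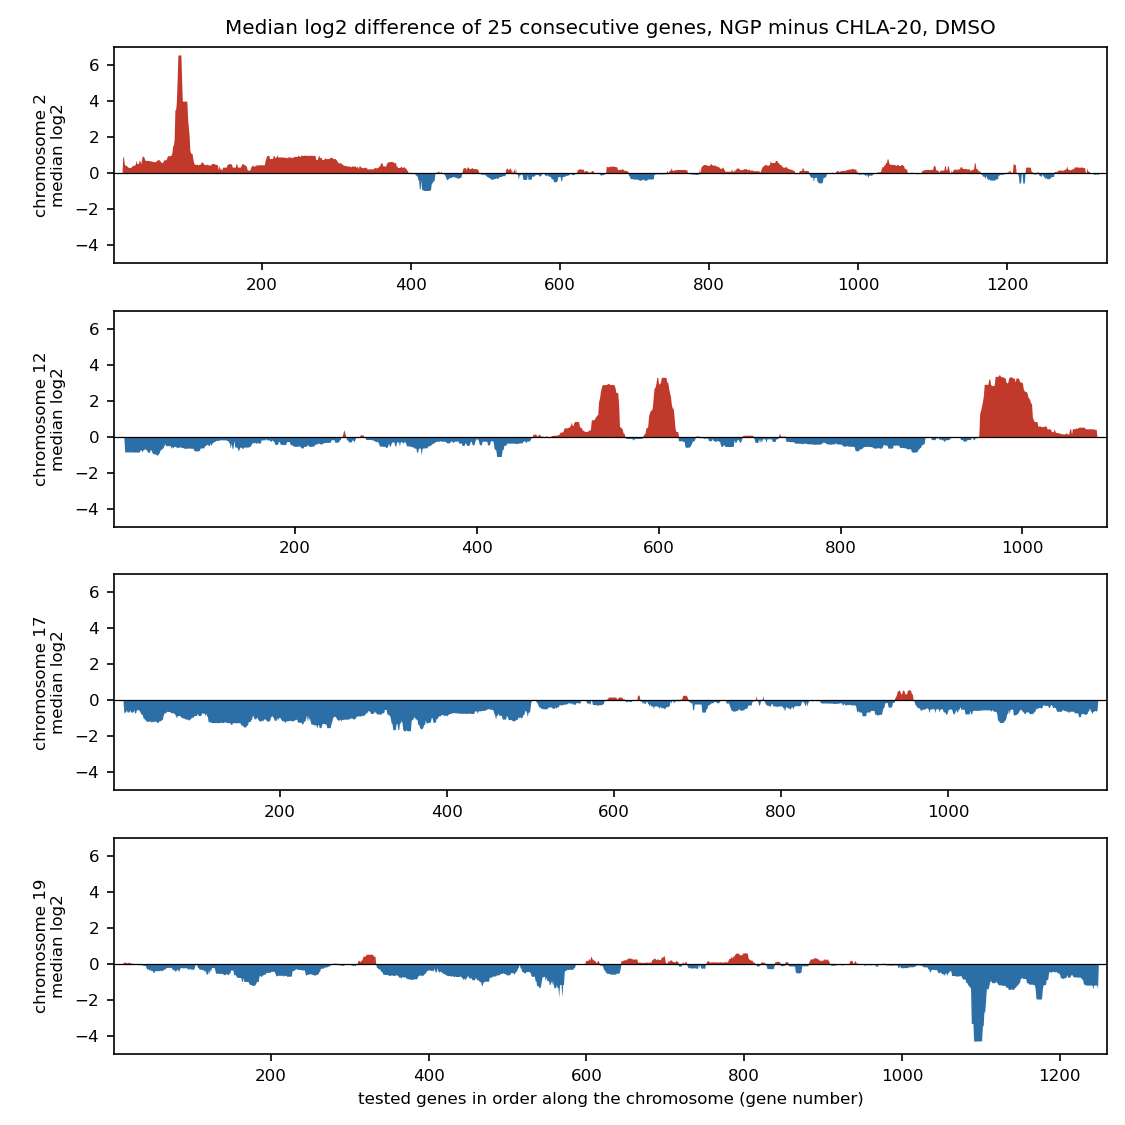
Median log2 difference, NGP minus CHLA-20, over 25 consecutive tested genes, plotted against gene number along chromosomes 2, 12, 17 and 19. Chromosome 2 has a single peak reaching 6.56 at MYCN, chromosome 12 has 3 separate plateaus near 3, chromosome 17 lies below 0 over most of its length and chromosome 19 has a trough at -4.28.

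The same lines treated with the PRMT5 inhibitor gave a separate set of libraries for the contrast; the treated and vehicle groups share no sample. Of the 14637 genes called between the vehicle groups, 12304 (84.1%) were called in the same direction between NGP_JSK591 and CHLA_20_JSK591, 346 in the opposite direction and 1987 were not called. Of the 6838 called with at least a 2-fold difference, 6219 (90.9%) were called in the same direction, 19 in the opposite direction and 600 were not called. The treated contrast itself called 75.3% of all genes. MYCN had a log2 difference of 9.49 with inhibitor, MYC -10.93, TH -10.95, MDM2 3.17 and CDK4 2.89. A test of the difference between both contrasts called 5368 genes (27.7%), of which 621 (3.20% of all genes tested) had a size of at least 1 on the log2 scale and more than 3 counts in every group. HAND2 was lower in NGP with vehicle (log2 -0.25) and higher with inhibitor (log2 0.64), and the difference between contrasts was 0.89 (adjusted p 5.64e-21 by edgeR).

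**Figure D5:**
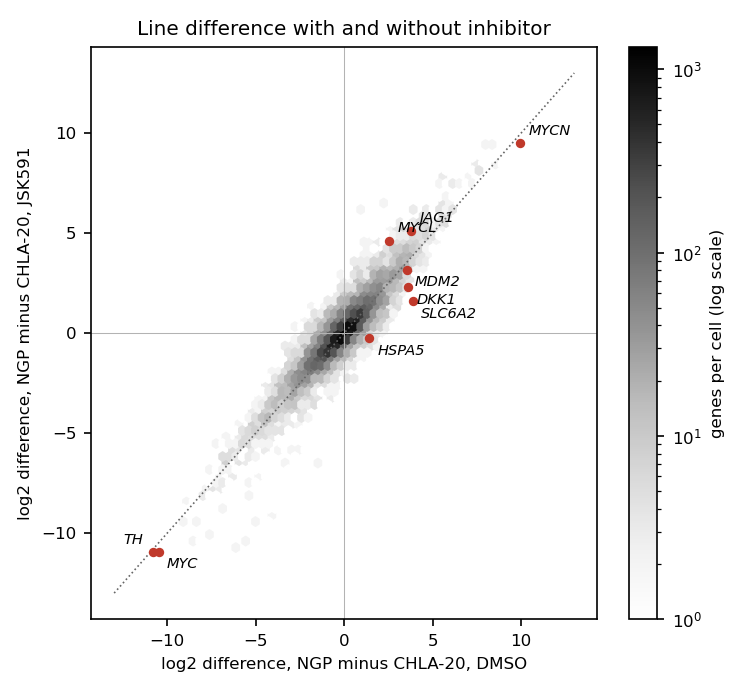
Log2 difference, NGP minus CHLA-20, with the inhibitor against that with vehicle, for the 18250 tested genes with more than 3 counts over each line's vehicle libraries; shading gives the number of genes on a log scale and the dotted line marks equal differences. The genes lie along the line from TH and MYC at the lower left to MYCN at the upper right, and SLC6A2, DKK1 and HSPA5 lie below it.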

How the data were processed

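The authors deposited a table of read counts per gene for each library, made from mRNA-enriched total RNA sequenced on DNBseq instruments per the labels' protocols. STAR, HTSeq and DESeq2 and the build GRCh38 (hg38) are named in the submitters' processing notes without role or version; the annotation and strand setting are not given in the sources used here. The gene IDs of all 58721 rows matched GENCODE release 29, which gave symbols, positions, exonic lengths and shared exonic bases. Shared bases were counted without regard to strand. Rows for reads not assigned to a gene were left out of library sizes (6.84 to 6.86% of NGP and 5.15 to 5.50% of CHLA-20 reads fell outside genes). Groups and replicates came from the labels. Counts were tested with edgeR 4.0.16 in R 4.3.3: filterByExpr over the 4 groups of 2 libraries, TMM scaling, 1 quasi-likelihood model over all 8 libraries and contrasts with Benjamini-Hochberg adjustment at 0.05. The test was run on simulated counts, in which 9 of its calls (6.43%) were false. There 50 of 19395 genes were changed at each of 1.25-, 1.5-, 2- and 4-fold, and the rest were level between the vehicle groups. In the data 75.5% of genes were called, so that share of false calls does not carry over to the real test. Alternatives used DESeq2 1.42.0, other scalings, filters and sample sets, a replicate block, left-out libraries and a GC offset. Folds against 0 counts used a floor of 3 counts over the group, and ratios on 1 to 3 counts carry exact 95% binomial intervals that cover counting error only, because PCR copies of a molecule are counted like separate ones. Tables and figures were made with pandas 2.3.3 and matplotlib 3.10.9.

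The comparison, lists and genes were chosen with earlier results of these data known. Genes were named by a rule: the 15 largest differences each way with at least 5 CPM in the higher line and 4 counts in the lower, the 10 most abundant restricted genes per line, up to 3 highest and 3 lowest members of each list, key genes of neuroblastoma, the 5 most abundant genes and up to 4 genes of each of the 5 highest and 5 lowest runs of 25 neighbours. Chosen after their values were seen were AGAP2, AHCY, BDNF, CACNA1A, CACNA2D2, CASP8, CDKN2C, CENPF, COL8A2, CPM, CTDSP2, DDC, DSC1, DSC3, EGR2, ENO2, EPHA2, ERBB4, ETV4, FAM49A, FASN, FRS2, GABRA5, GABRD, GATA2, GDF15, GPX1, GRIA1, GRIN1, HIST1H2AC, HIST1H2BD, HIST2H2BE, HMGA1, HOXA10, HOXA9, HOXC4, HOXC6, HOXC9, HOXD10, HOXD13, HOXD8, HOXD9, INSM1, ISL1, JUP, KIT, LDHA, LOX, LOXL2, MAB21L2, MDM4, MXD1, NEFH, NOTCH3, NPAS4, NPY, ODC1, PAX7, PCDHB2, RIOK1, RPLP2, SESN2, SLC18A1, SLC18A2, SLC39A14, SLIT1, STMN2, SUZ12, SYT4, TBX18, TGFBR2, THBS1, TRIB2, TSPAN31, WDR66 and WNT6, and genes named for near-absent counts (CHGA, FAP, HLA-B, HLA-C, POSTN, RPS18, TAP1). Results for some genes are not reported here.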

Additional observations from a re-analysis of the deposited data

Results flagged for a closer look

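The difference between the lines was itself different with inhibitor for 32 of the 445 genes that the naming rule or the text names, by an interaction term in edgeR with a Benjamini-Hochberg adjusted p under 0.05, a size of at least 1 on the log2 scale and more than 3 counts in every group. The interaction is the line difference with inhibitor minus that with vehicle; the same criteria were met by 3.20% of all genes, and an adjusted p under 0.05 alone by 27.7%. SLC6A2, the noradrenaline transporter, had a line difference of 3.88 with vehicle and 1.60 with inhibitor, an interaction of -2.28 ± 0.13 (SE). HSPA5, the chaperone of the endoplasmic reticulum, had 1.39 with vehicle and -0.25 with inhibitor (-1.64 ± 0.05), the only one of these genes whose line difference changed sign. NPAS4, an activity-induced transcription factor, had the largest interaction at -4.86 ± 0.73, with a line difference of 6.52 with vehicle and 1.66 with inhibitor. DKK1 had 3.60 with vehicle and 2.29 with inhibitor (-1.31 ± 0.08). The line differences of MYCL (2.08 ± 0.29), ERBB4 (1.89 ± 0.20), KIT (1.62 ± 0.17) and HOXD10 (1.42 ± 0.14) in favour of NGP were wider with inhibitor.

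Among the other genes the line difference was wider with inhibitor for CACNA1H (2.05), CD74 (1.68), CDH7 (1.48), COL11A1 (1.71), ETV4 (-1.41), ETV5 (-1.94), HES7 (2.34), IGFBP5 (1.18), INHBE (1.63), INPP4B (1.90), JAG1 (1.33), PTN (-1.89) and SYT4 (-1.19). It was narrower with inhibitor for BOK (1.16), CLDN4 (1.09), COL8A2 (1.59), CYR61 (-1.04), IRX5 (1.05), LOXL2 (1.04), MARC1 (2.04), NOTCH3 (1.18), PCDHB5 (1.09), PCDHGA1 (-1.31) and STXBP6 (-1.40). Several of these had few counts in one line, and their standard errors ran up to 0.69 on the log2 scale. No group has more than 2 libraries, so single outlying libraries were not sought.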

How the results depend on the processing

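Every alternative called at least 2287 genes in each direction, but the excess of lower over higher calls was not stable. It turned to an excess of higher calls with total count scaling (7357 higher and 7255 lower) and without replicate 2 of CHLA_20_DMSO. Removal of each library's GC trend, an alternative chosen after seeing the data, did the same (7466 and 7253). By at least 2-fold, lower genes outnumbered higher ones under every alternative, with 3155 higher and 3676 lower under total count scaling and 3174 and 3543 after GC removal. Leaving out each vehicle library in turn gave 6594 to 6962 higher and 6864 to 7154 lower, or 2928 to 3037 and 3569 to 3734 by at least 2-fold, with the lone library of an arm assumed to vary like the other groups. A test against a 2-fold difference left 2287 higher and 2962 lower. With at least 10 counts in every vehicle library, 1614 were higher and 2142 lower by at least 2-fold. DESeq2 called 6610 higher and 6746 lower. The count called in the same direction in the treated libraries ran from 9721 (at least 10 counts) to 12488 (GC trend removed), and from 11788 to 11848 with a vehicle library left out. With a replicate block the calls were 7078 higher and 7537 lower, or 3042 and 3772 by at least 2-fold, and 12271 in the same direction in the treated libraries. The labels give replicate numbers without saying that they pair samples. Deviations of NGP_DMSO replicate 1 and CHLA_20_DMSO replicate 1 from their group means correlated at 0.00898 over the genes tested. Same-numbered vehicle and treated libraries were not compared, so whether replicate numbers pair samples is not settled. Among named genes the block ended the calls of NEU3 and VWF. Of 6412 values of 445 named genes under 15 settings, 6260 kept their direction and side of the threshold, 143 no longer passed (100 of them in the test against 2-fold) and 6 newly passed, among them MTAP after GC removal (log2 -0.12). Removal of the GC trend reversed AGAP2 (0.24), MXD4 (0.033) and NGFR (0.21), and also ended the calls of HAND2, PPAN and PRMT7. List medians stayed within 0.1 in 623 of 741 cases and took the other sign in 47, mostly near 0. Examples of larger shifts or changes of sign were Notch (0.09) and BCL2 family genes (0.12) after GC removal, collagens (0.20) with at least 10 counts, and neural crest factors (-0.23 with at least 10 counts, 1.96 with no filter). Blood markers, of which 2 were tested, went from 0.23 to -0.30 without replicate 1 of CHLA_20_DMSO and -0.51 without replicate 2 of NGP_DMSO. Restricting to genes that share under 10% of their exonic bases moved the median of the MYC network to 0.79, of HOX genes to -1.24, of fibroblast and stroma markers to -3.54 and of adrenergic factors to 0.26. The cause of these shifts was not tested. With 2 libraries a group, simulated data with these depths recovered 34 of 50 genes changed by 2-fold and 42 of 50 changed by 4-fold. Nearly all other genes were level between the simulated vehicle groups, whereas 75.5% were called in the data. These recovered counts therefore do not measure recovery in the real test. A gene that did not pass is not shown to be level.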

Other observations

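Several gene groups outside the lists stood out after the values were seen, and they are given as descriptions without a test of the group. Over all tested genes 36.6% were higher and 38.9% lower in NGP. A member near 0 in one line could enter the test only through its level in the other. Replication-dependent histone genes, whose mRNAs mostly end without a poly(A) tail, were higher in NGP in 47 of 51 cases and lower in 0, with a median log2 of 2.11 against -0.02 over all genes. HIST2H2BE stood at 4.68 and 4.98 CPM in CHLA-20 and 31.3 and 30.4 CPM in NGP, HIST1H2AC (2.502 to 22.4 CPM) and HIST1H2BD (1.95 to 16.6 CPM) had similar differences, and all were low in absolute level. With inhibitor the median was 2.32. Whether the histone transcripts counted here carried a tail was not measured, for the genes named or for the others. Small RNAs, which also usually lack a poly(A) tail, were higher too. Of 43 tested snRNA genes 29 were higher in NGP and 0 lower (median log2 2.07), and of 57 snoRNA genes 26 were higher and 2 lower. Reads outside annotated genes were also a larger share of the NGP libraries (6.84 and 6.86%, against 5.15 and 5.50% in CHLA-20), and the part of mRNA enrichment in these differences was not tested. The labels describe the libraries as enriched for mRNA.

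Cancer-testis antigens of the MAGE A, B and C families were higher in NGP for all 6 members tested, with MAGEC1 at 0.0296 and 0.0889 CPM in CHLA-20 and 62.1 and 62.97 CPM in NGP and MAGEA3 at 0 counts in CHLA-20 and 7.93 ± 0.710 CPM (SD, n = 2) in NGP. MAGEA3, MAGEA6 and MAGEA12 are close paralogues, so their separate counts are uncertain. MAGEC1 and MAGEA3, near 0 in CHLA-20, could enter the test only through their level in NGP, so the count describes tested members alone. Desmosome genes, which encode junctions of epithelia and heart muscle, were higher for 7 of 7 tested, against 36.6% over all genes. DSG2, DSC1, DSC2, DSC3 and PKP2 were near 0 in CHLA-20 and could enter the test only through their level in NGP. The count therefore describes the tested members and not the whole family. The cadherins DSC1 (0.0148 to 5.93 CPM) and DSC3 (0.0740 to 7.22 CPM) accompanied DSC2 and DSG2, and the plaque protein JUP went from 112 to 217 CPM, while epithelial markers summed to at most 3.90 CPM in NGP. Among 12 tested GABA-A receptor genes 8 were higher in NGP and 1 lower, against 36.6% higher and 38.9% lower over all genes. GABRA5 (3.95 to 41.1 CPM) joined the subunits described above. Solute carriers were lower in 133 and higher in 82 of 260 cases (median log2 -0.29). Over all 13953 tested protein-coding genes 6042 were lower and 5517 higher (median log2 -0.04), so this shift is modest.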
